A study of Mus musculus with 12 samples.

Results

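The AP-1 transcription factor family was examined in inguinal white adipose tissue (iWAT) of mice whose livers overexpressed either GFP or mouse Notum. The 8 members were taken by gene symbol from the 54134 genes of the read count table: Fos, Fosb, Fosl1, Fosl2, Jun, Junb, Jund and Atf3. They were chosen by a rule that used their own measured values in the AAV-Notum against AAV-GFP comparison, so the fold changes of the members are given below as a description and without a test. All 12 mice were male C57BL/6J. At 8 weeks of age each was given, through the tail vein, an adeno-associated virus (AAV) carrying GFP or Notum behind the thyroxine binding globulin promoter, which is active in hepatocytes. The 6 AAV-GFP and 6 AAV-Notum mice then ate chow for 4 weeks and were fasted for 4 h before iWAT was collected, and each mouse gave a library of its own. NOTUM is a secreted enzyme that inactivates Wnt proteins, and the transgene promoter is that of a liver gene. Mice without AAV were not analysed here.

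AP-1 is a dimer of basic leucine zipper proteins. Proteins of the Jun group pair with one another or with proteins of the Fos group, whereas Fos proteins need a Jun partner to bind DNA. Fos, Fosb, Jun, Junb and Atf3 are immediate early or stress response genes, whose transcripts appear soon after a stimulus and decay quickly. Fosl2 (Fra-2) and Jund are commonly described as more steadily expressed members, and Fosl2 is known in adipocytes as a regulator of leptin expression. Signals of the MAP kinase pathways act on the family both through its promoters and through phosphorylation of the proteins.

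The promoters of Fos, Jun, Junb and Fosl2 are shown because these genes set the steadier and the more variable members side by side in the results. Each window is from RefSeq on GRCm38.p6 and is 300 bases long, the last 50 of them after the annotated start. It is written 5′ to 3′ on the strand of the gene. Capitals mark matches to the motifs searched. The windows lie at chr12:85473640-85473939 on the plus strand for Fos, chr4:95052173-95052472 on the minus strand for Jun, chr8:84978699-84978998 on the minus strand for Junb, and chr5:32136222-32136521 on the plus strand for Fosl2.
Fos: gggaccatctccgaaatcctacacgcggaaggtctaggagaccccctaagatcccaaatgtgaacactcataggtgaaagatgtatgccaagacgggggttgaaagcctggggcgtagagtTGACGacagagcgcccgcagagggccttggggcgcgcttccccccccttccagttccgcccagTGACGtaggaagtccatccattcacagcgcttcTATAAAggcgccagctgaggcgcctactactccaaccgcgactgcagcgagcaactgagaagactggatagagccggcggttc
Jun: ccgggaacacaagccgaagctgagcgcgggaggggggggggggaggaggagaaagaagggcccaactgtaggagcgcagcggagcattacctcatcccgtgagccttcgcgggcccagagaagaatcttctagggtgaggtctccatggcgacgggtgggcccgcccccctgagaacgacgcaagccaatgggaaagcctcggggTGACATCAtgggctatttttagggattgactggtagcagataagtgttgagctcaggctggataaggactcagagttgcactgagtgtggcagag
Junb: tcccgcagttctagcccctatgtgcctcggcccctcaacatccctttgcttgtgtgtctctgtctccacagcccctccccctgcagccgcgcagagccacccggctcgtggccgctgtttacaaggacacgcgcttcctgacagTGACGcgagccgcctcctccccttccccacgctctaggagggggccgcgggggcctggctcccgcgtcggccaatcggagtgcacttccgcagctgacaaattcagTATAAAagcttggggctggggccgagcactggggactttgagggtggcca
Fosl2: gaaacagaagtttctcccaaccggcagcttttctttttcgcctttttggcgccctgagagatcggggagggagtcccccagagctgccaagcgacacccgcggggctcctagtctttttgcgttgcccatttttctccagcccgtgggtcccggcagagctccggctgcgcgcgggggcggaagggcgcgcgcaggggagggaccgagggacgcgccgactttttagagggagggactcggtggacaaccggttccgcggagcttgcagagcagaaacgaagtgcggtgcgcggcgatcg

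The motifs were searched on both strands. They were the AP-1 site TGACTCA, the cAMP response element TGACGTCA, the variant site TGACATCA, the shorter core TGACG, the serum response element core (CArG box) and the TATA box letters TATAAA. The shorter core is contained in the full cAMP response element, which none of the 7 windows held. The Fos window held TGACG 129 and 66 bases before the start and TATAAA 33 bases before it. The Jun window held TGACATCA 45 bases before the start, the Junb window held TGACG 106 bases before the start and TATAAA at bases 251 to 256 of the window, and no searched motif matched in the Fosl2 window. Windows were found for 7 of the 8 members. Fosb carried TGACG 60 bases before the start and Atf3 carried it 7 bases before the start on the opposite strand. Among all 32851 windows of this length, 20.8% held TGACG, 13.6% TATAAA, 5.20% TGACTCA, 3.62% TGACATCA, 1.79% TGACGTCA and 1.63% a CArG box. A match describes the letters only, and the absence of a match says nothing about which factors act on the gene.

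The libraries held 15266635 to 21618860 counted reads in AAV-GFP mice and 14711113 to 17838229 in AAV-Notum mice. RNA integrity numbers ran from 5.7 to 7.6 and from 6.9 to 7.4. RNA of 1 mouse, AAV-GFP S_2012, was isolated on a different day from the rest. Defining adipocyte markers were abundant in both groups, with summed levels of 50610 to 90520 CPM and 47400 to 105800 CPM. Markers of lymphoid cells differed widely between mice. All 15 lymphoid markers together came to 15.1 CPM in AAV-GFP mouse S_2011 and 9.66 CPM in AAV-GFP mouse S_2014, against 367.8 to 2484 CPM in the other 10 mice. These 2 mice stand apart, and fold changes of the members are therefore given with and without them. Of 15585 genes tested with edgeR, 8 had an adjusted p under 0.05, all lower in AAV-Notum mice, and the median log2 fold change over all tested genes was 0.0077.

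Of the 8 members, 6 had enough reads to be tested, namely Fos, Fosb, Fosl2, Jun, Junb and Atf3. Levels are in CPM, that is, reads relative to the library total after TMM scaling, and fold changes are AAV-Notum minus AAV-GFP on the log2 scale. Fosl2 and Jun were lower in AAV-Notum mice, Fos and Junb had higher means with overlapping groups, and Fosb and Atf3 had lower means with overlapping groups. With edgeR, 1 of the 6 members (Fosl2) was among the genes called lower, against 0.0513% of all tested genes. This call held in 2 of 12 fits with 1 mouse left out, those without S_2013 or S_2022, and in neither fit with a covariate. At an unadjusted p under 0.05, 2 members were lower (Fosl2 and Jun, against 9.54% of all tested genes) and 0 were higher (4.64% of all tested genes). The same 2 members had no overlap between the groups (0.693% of all tested genes were lower without overlap), and 0 members were higher without overlap (0.398% of all tested genes). These counts restate the rule that chose the members.

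**Figure D1:**
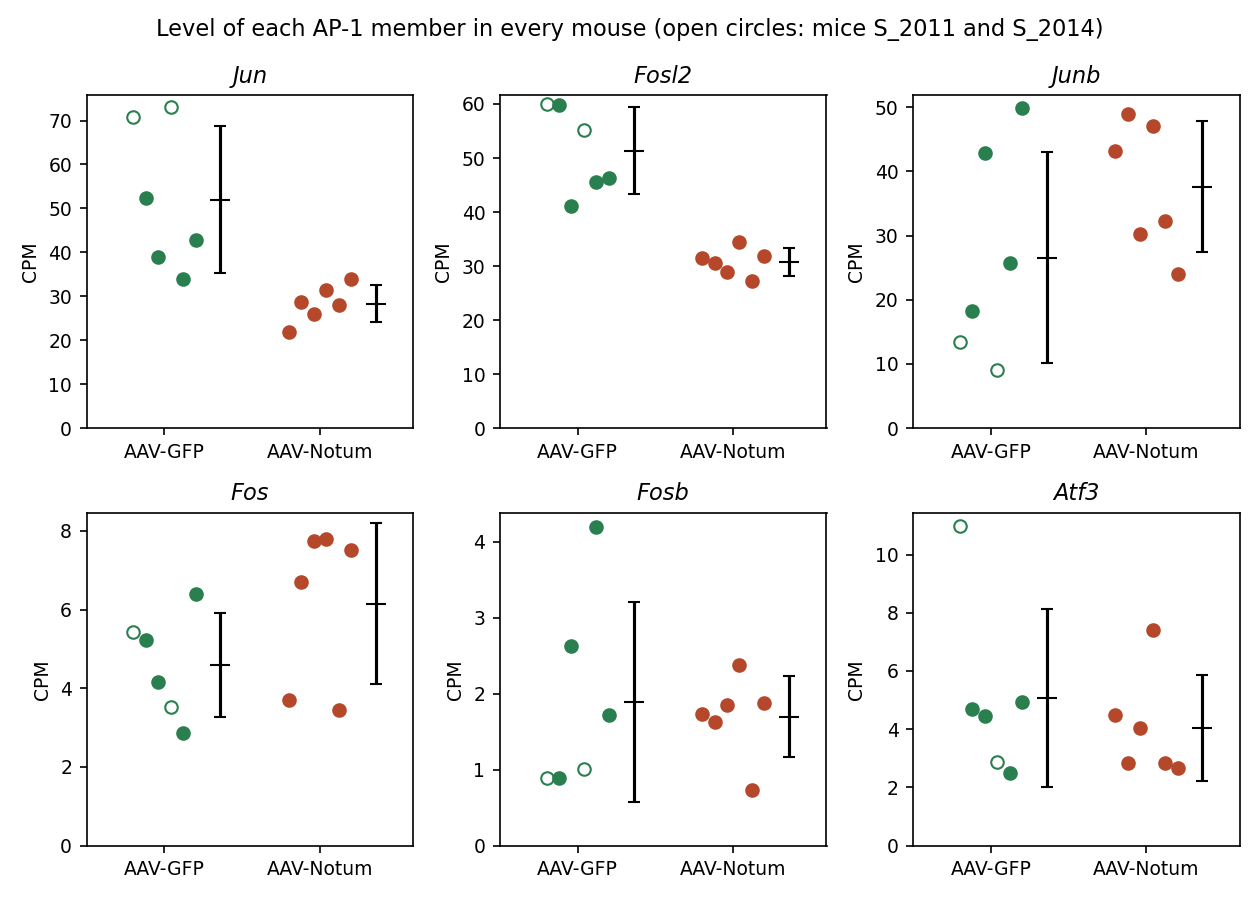
CPM (linear axis) of each of the 6 tested members, 1 circle per mouse, in AAV-GFP and AAV-Notum mice (n = 6 each); the black bar and whiskers are the mean ± SD and open circles are AAV-GFP mice S_2011 and S_2014. Fosl2 and Jun circles of the groups do not overlap, Jun by a margin of 33.87 against 33.86 CPM, whereas the other 4 members overlap.

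Fosl2 (ENSMUSG00000029135, chromosome 5 of GRCm38, 32135801 to 32157842), the Fos group member Fra-2, ranged from 41.2 to 60.0 CPM in AAV-GFP mice with a median of 50.8 CPM. In AAV-Notum mice it ranged from 27.2 to 34.5 CPM with a median of 31.0 CPM. Every AAV-Notum mouse lay below every AAV-GFP mouse, and the AAV-Notum mice lay close to one another. Group means of 51.4 ± 8.03 and 30.8 ± 2.55 CPM (SD, n = 6 each) gave a log2 fold change of -0.74 ± 0.11 (SE). Between 435 and 1070 reads of Fosl2 were counted in each mouse. The log2 fold change was -0.65 ± 0.11 (SE) without mice S_2011 and S_2014 and -0.69 without mouse S_2012. It lay between -0.79 and -0.69 when any 1 mouse was left out, and between -0.79 and -0.59 over all alternative fits.

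Jun (ENSMUSG00000052684, chromosome 4, 95049034 to 95052222), the founding Jun group member and a target of the JNK kinases, ranged from 33.9 to 73.2 CPM in AAV-GFP mice with a median of 47.6 CPM. In AAV-Notum mice it ranged from 21.95 to 33.9 CPM with a median of 28.4 CPM. The groups touched, as the lowest AAV-GFP mouse (S_2021) had 33.87 CPM and the highest AAV-Notum mouse (S_2042) had 33.86 CPM. The highest Jun levels, 73.2 and 70.8 CPM, were those of mice S_2014 and S_2011, the 2 mice almost without lymphoid markers. Group means of 52.0 ± 16.7 and 28.3 ± 4.14 CPM (SD, n = 6 each) gave a log2 fold change of -0.88 ± 0.19 (SE). Without mouse S_2012 it was -0.87, without the 2 mice of highest level it was -0.57 ± 0.14 (SE), and with the lymphoid marker level as a covariate it was -0.47 ± 0.11 (SE). In bulk tissue, fewer cells of a type and less RNA per cell cannot be told apart.

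Junb (ENSMUSG00000052837, chromosome 8, 84974484 to 84978718), a Jun group member that often opposes Jun at shared targets, ranged from 9.12 to 49.8 CPM in AAV-GFP mice with a median of 22.04 CPM. In AAV-Notum mice it ranged from 24.0 to 48.9 CPM with a median of 37.7 CPM. The groups overlapped, and the lowest values, 9.12 and 13.5 CPM, were those of mice S_2014 and S_2011. Group means of 26.6 ± 16.5 and 37.6 ± 10.2 CPM (SD, n = 6 each) gave a log2 fold change of 0.50 ± 0.38 (SE). Without mice S_2011 and S_2014 it was 0.14 ± 0.29 (SE), and the sign turned, at -0.061 ± 0.18 (SE), with the lymphoid marker level as a covariate.

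Fos (ENSMUSG00000021250, chromosome 12, 85473890 to 85477273), the prototype immediate early gene, ranged from 2.86 to 6.40 CPM in AAV-GFP mice with a median of 4.70 CPM. In AAV-Notum mice it ranged from 3.45 to 7.81 CPM with a median of 7.11 CPM. Of the 6 AAV-Notum mice, 4 lay above every AAV-GFP mouse and the other 2 lay low within the AAV-GFP range. Group means of 4.60 ± 1.32 and 6.16 ± 2.04 CPM (SD, n = 6 each) gave a log2 fold change of 0.42 ± 0.26 (SE). Between 56 and 138 reads per mouse stand behind these values, far fewer than for Jun or Fosl2. Without mice S_2011 and S_2014 the log2 fold change was 0.40 ± 0.30 (SE).

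Fosb (ENSMUSG00000003545, chromosome 7, 19302696 to 19310051), a close relative of Fos, ranged from 0.893 to 4.20 CPM in AAV-GFP mice and from 0.738 to 2.38 CPM in AAV-Notum mice, with medians of 1.37 and 1.79 CPM. The groups overlapped throughout, and the highest level was that of AAV-GFP mouse S_2021. The log2 fold change was -0.16 ± 0.41 (SE) on 12 to 91 reads per mouse, and it turned to 0.25 without mouse S_2021 and to 0.022 on the authors' normalized values. Without mice S_2011 and S_2014 it was -0.49 ± 0.41 (SE), and with the lymphoid covariate it was -0.60 ± 0.35 (SE).

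Atf3 (ENSMUSG00000026628, chromosome 1, 191170296 to 191218039), a stress-induced factor that pairs with Jun proteins, ranged from 2.49 to 11.0 CPM in AAV-GFP mice and from 2.65 to 7.41 CPM in AAV-Notum mice, with medians of 4.58 and 3.44 CPM. The groups overlapped, and AAV-GFP mouse S_2011, the library of lowest RNA integrity (5.7), stood alone at the top. The log2 fold change was -0.33 ± 0.37 (SE), it was 0.059 without mouse S_2011, and it was -0.0052 with RNA integrity as a covariate and -0.030 without mice S_2011 and S_2014. The part of RNA quality in the Atf3 level was not tested.

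**Figure D2:**
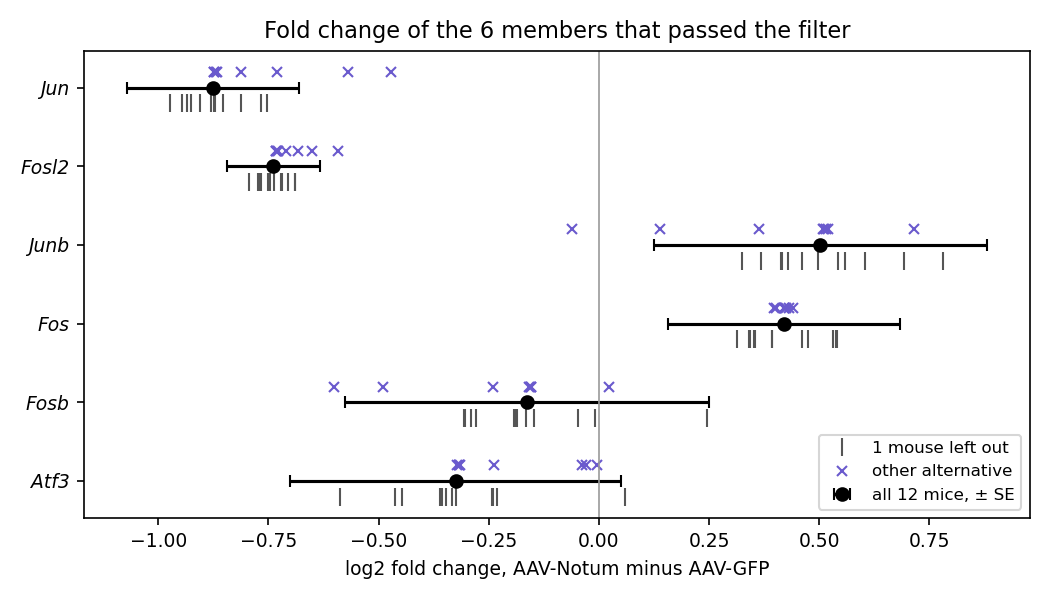
Log2 fold change (AAV-Notum minus AAV-GFP) of the 6 tested members; circles with whiskers are the fit of all 12 mice ± SE, ticks are fits with 1 mouse left out, and crosses are the other alternatives. Fosl2 and Jun lie below 0 in every fit drawn, Fos lies above 0 in every fit drawn, and Junb, Fosb and Atf3 have values on both sides of 0.

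Fosl1 and Jund had too few reads to be tested. Fosl1 (Fra-1, ENSMUSG00000024912, chromosome 19, 5447547 to 5455946) had 0 to 6 reads per mouse and 29 in all in the raw table, but 27 to 53 per mouse and 456 in all in the reads behind the authors' normalized table. On those reads its log2 fold change was -0.22 ± 0.21 (SE). Of its exonic bases, 57.2% lie across from Ccdc85b on the opposite strand, and the strand setting of the counting is not given in the sources used here. Jund (ENSMUSG00000071076, chromosome 8, 70698949 to 70700616), a member present in most tissues, had 4 reads in all over the 12 mice in the raw table and 3 in the other. Antisense gene Gm11175, itself at 11 reads in all, covers 52.6% of the 1668 exonic bases of Jund, and the cause of the near-absence of reads over the other 791 bases was not tested. The Jund value is therefore not read as a low level of the transcript. Smaller antisense overlaps concern Jun (7.3% of exonic bases, with Junos at 11 to 31 reads per mouse) and Junb (7.5%, with Prdx2 at 1191 to 2051 reads per mouse).

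Levels of different members were set beside each other per kilobase of exon. In AAV-GFP mice the order of the means was Jun at 16.3 ± 5.22, Junb at 11.5 ± 7.15, Fosl2 at 5.31 ± 0.83, Atf3 at 2.35 ± 1.42, Fos at 1.96 ± 0.56 and Fosb at 0.303 ± 0.211 CPM per kilobase (SD, n = 6). In AAV-Notum mice it was Junb at 16.3 ± 4.43, Jun at 8.89 ± 1.30, Fosl2 at 3.18 ± 0.26, Fos at 2.62 ± 0.87, Atf3 at 1.88 ± 0.84 and Fosb at 0.272 ± 0.086 CPM per kilobase (SD, n = 6). Jun and Junb stood in opposite order at the top of the groups. Without S_2011 and S_2014 the AAV-GFP means were 13.2 ± 2.44 for Jun, 14.9 ± 6.37 for Junb, 4.98 ± 0.83 for Fosl2, 1.92 ± 0.52 for Atf3, 1.98 ± 0.64 for Fos and 0.378 ± 0.227 for Fosb CPM per kilobase (SD, n = 4), so that the AAV-GFP order was then that of the AAV-Notum mice, and the opposite order rests on those 2 mice. Jun was above Junb in 3 of 6 AAV-GFP mice and in 1 of 6 AAV-Notum mice, so the order of these neighbours was within their spread in AAV-GFP mice. Atf3 and Fos also did not separate, Atf3 being above Fos in 2 of 6 mice of each group. Junb was above Fosl2 in 4 of 6 AAV-GFP mice and in 6 of 6 AAV-Notum mice. Fosb was below both Fos and Atf3 in every mouse.

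The ratio of Jun to Junb levels (CPM) showed this mouse by mouse. It was 7.94 in AAV-GFP mouse S_2014, 5.23 in mouse S_2011 and 2.85 in mouse S_2012, and it lay between 0.862 and 1.31 in the other 3 AAV-GFP mice. In AAV-Notum mice it ran from 0.510 to 1.41. The high ratios were thus those of the 3 mice with the fewest lymphoid markers, and the AAV-GFP mice with more of them overlapped with the AAV-Notum mice.

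Fosl2, the only steadier member with enough reads, was compared with the quickly induced members in spread between mice of the same group. Jund had too few reads, so the steadier members as a class could not be assessed. The measure does not use the difference between groups. A small spread does help groups to separate, however, so it is not independent of the rule that chose the members. The pooled within-group SD of log2 CPM was 0.18 for Fosl2, 0.36 for Jun, 0.49 for Fos, 0.65 for Atf3, 0.72 for Fosb and 0.73 for Junb. The median over all tested genes was 0.30. Fosl2 alone of the 6 lay below it, with 24.6% of tested genes varying less, while 59.8% varied less than Jun, 75.2% less than Fos, 84.5% less than Atf3, 86.7% less than Fosb and 87.0% less than Junb. Fosl2, Jun and Junb had similar mean levels of 5.31, 5.23 and 4.84 log2 CPM, whereas Fos, Atf3 and Fosb rest on fewer reads. The differences between these SDs were not tested. Without mice S_2011 and S_2014 the SD of Junb was 0.52, that of Jun was 0.22 and that of Fosl2 was 0.16. Jun then also lay below 0.30, the median over all tested genes with every mouse kept, so Fosl2 was no longer alone there. The spread of Fosl2 was also the smallest of the 6 in every fit with 1 mouse left out, at 0.16 to 0.19.

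**Figure D3:**
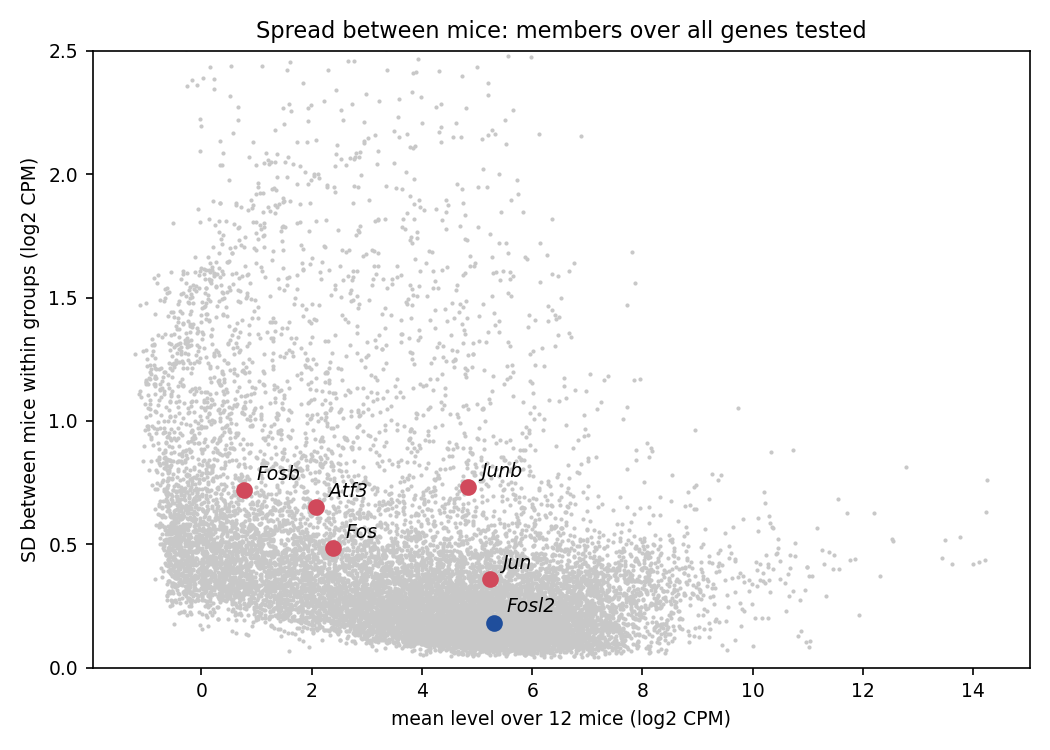
Pooled within-group SD of log2 CPM against mean log2 CPM over 12 mice, with all tested genes in grey, Fosl2 in blue and the other 5 tested members in red; 97 genes with an SD above 2.5 lie outside the axis. Fosl2 sits low in the cloud at 0.18, and Junb, at a similar mean level, sits at 0.73.

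Whether the members moved together from mouse to mouse was tested on log2 CPM with the group means removed. Fos was set against each of the 5 other tested members over 12 mice. Pearson's r with Atf3 was 0.469 (permutation p = 0.128, adjusted 0.446 over 5 relations), with Spearman's rho of 0.448 (permutation p = 0.151), and r was 0.596 without the 2 mice farthest from the Fos median. For Jun r was 0.343 (permutation p = 0.254, adjusted 0.446, rho 0.273 with permutation p = 0.386, and r 0.272 without the 2 mice). For Fosl2 r was 0.338 (permutation p = 0.268, adjusted 0.446, rho 0.336 with permutation p = 0.285, and r 0.294 without the 2 mice). For Junb r was 0.116 (permutation p = 0.709, adjusted 0.886, rho 0.133 with permutation p = 0.685, and r 0.179 without the 2 mice). For Fosb r was 0.011 (permutation p = 0.974, adjusted 0.974, rho 0.252 with permutation p = 0.442, and r -0.355 without the 2 mice). These values pool the groups. Taken by group, r with Fosb was -0.558 in AAV-GFP and 0.746 in AAV-Notum mice, and r with Junb was 0.262 and -0.102. The sign was the same in both groups for Atf3, Jun and Fosl2. None of the 5 relations passed after adjustment.

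Lymphoid markers, in contrast, moved with Junb. Over the 10 mice other than S_2011 and S_2014, with group means removed, Junb rose with the mean log2 level of the lymphoid markers at r = 0.895 (permutation p = 4.6e-04, adjusted 0.00276 over 6 members) and rho = 0.891 (permutation p = 0.00132, adjusted 0.00792). It was 0.832 without the 2 mice farthest from the median marker level, S_2012 and S_2042. Jun had r = -0.662 (permutation p = 0.0732, adjusted 0.220, rho -0.418, permutation p = 0.269) and Fosl2 had r = -0.618 (permutation p = 0.163, adjusted 0.325, rho -0.406, permutation p = 0.300). Both rested on mice S_2012 and S_2042, since without them r was 0.0483 for Jun and 0.130 for Fosl2. For Fosb, Atf3 and Fos r was 0.487, 0.133 and -0.163, with adjusted permutation p of 0.425, 0.684 and 0.684 and rho of 0.200, 0.248 and 0.0667. This relation was examined after the data were seen. The medians of these markers were 821.4 CPM in AAV-GFP and 1704 CPM in AAV-Notum mice. All 15 lymphoid markers had higher values in AAV-Notum mice (median 0.99 on the log2 scale), and none passed an unadjusted p under 0.05. All 10 skeletal muscle markers also had higher fold changes (median 1.39, 0 at an unadjusted p under 0.05). Their sums were 10.35 to 1027 CPM in AAV-GFP mice and 8.77 to 4788 CPM in AAV-Notum mice. The 4788 CPM was that of mouse S_2042, and the next AAV-Notum mouse, S_2033, had 682.1 CPM. Median sums went the other way, at 148.9 CPM in AAV-GFP and 38.9 CPM in AAV-Notum mice. Of 10 adipocyte markers 8 had lower values (median -0.24, 0 at an unadjusted p under 0.05), beside 48.8% of all tested genes. All 9 hepatocyte markers had lower values (median -2.80, 2 at an unadjusted p under 0.05), with sums of 49.4 to 6253 CPM in AAV-GFP mice and 23.9 to 908.1 CPM in AAV-Notum mice. Lower values were also found for 6 of 8 progenitor markers (median -0.25, 3 lower at an unadjusted p under 0.05), 7 of 8 endothelial markers (median -0.27, 1 lower) and 4 of 7 tested smooth muscle markers (median -0.24, 1 lower). Of 10 macrophage markers 6 had lower values (median -0.093, 2 lower at an unadjusted p under 0.05), and Cd163 had 61.5 and 32.0 CPM without overlap (log2 fold change -0.94 ± 0.16, SE, edgeR adjusted p = 0.0696). The macrophage sums, 515.6 to 1588 against 916.8 to 1749 CPM, hold Lyz2 as the most abundant marker, at means of 554.7 and 825.6 CPM. Of 6 tested neutrophil and mast cell markers 5 had higher values (median 0.22, 1 higher at an unadjusted p under 0.05). With edgeR, 0 of these markers passed the adjusted threshold. The part of these cell types in the members' fold changes was not tested beyond the fits given above.

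**Figure D4:**
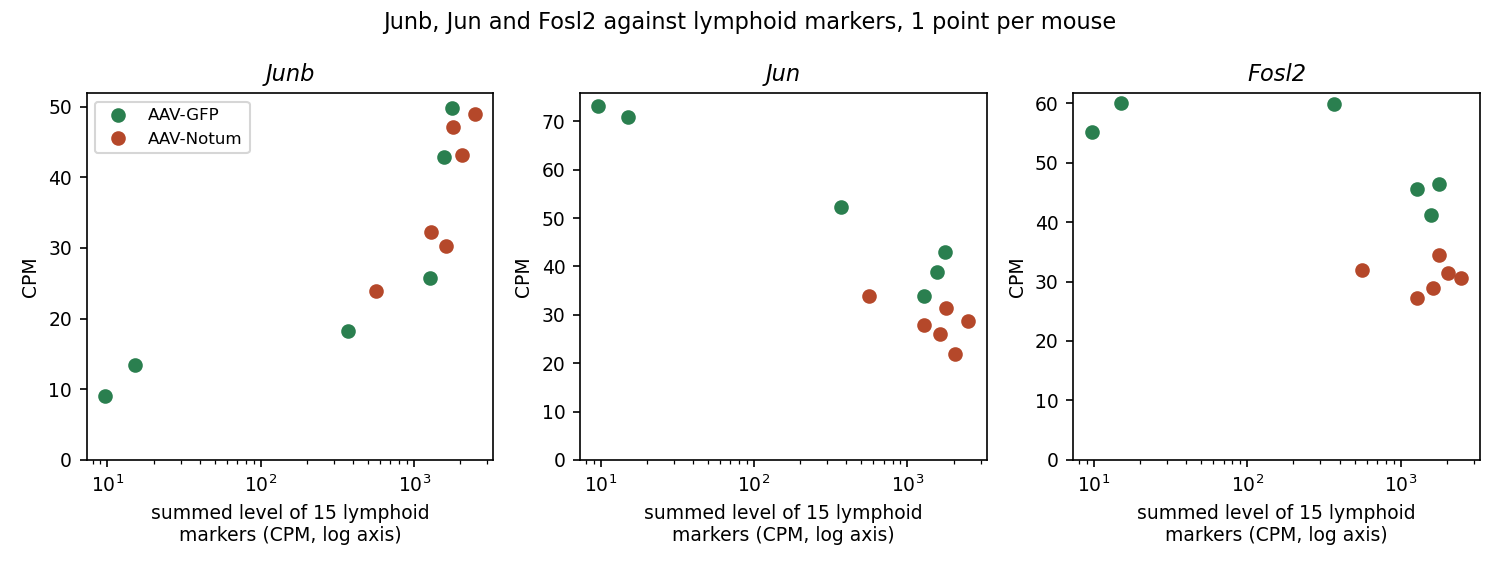
CPM of Junb, Jun and Fosl2 (linear axes) against the summed CPM of 15 lymphoid markers (log axis), 1 point per mouse, coloured by group. Mice S_2011 and S_2014 stand at the far left, at 15.1 and 9.66 CPM, with the lowest Junb and the highest Jun, and AAV-Notum mice begin at 560.0 CPM.

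The genes around AP-1 were then read from 7 lists holding 140 genes, of which 128 were tested. Of these, 17 were lower at an unadjusted p under 0.05 (13.3%, against 9.54% of all tested genes) and 5 were higher (3.91%, against 4.64%). With edgeR, 1 list gene was lower at an adjusted p under 0.05 and 0 were higher. Of all tested genes 48.8% had a lower value in AAV-Notum mice, and the shares of all tested genes at an unadjusted p under 0.05 are the background for each list that follows.

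Among proposed AP-1 target genes, 24 of 31 were tested, 13 with a lower and 11 with a higher value in AAV-Notum mice, and the median log2 fold change was -0.18. This median ran from -0.27 (without S_2013) to -0.028 (without S_2012) with 1 mouse left out, was -0.048 with RNA integrity as a covariate, and turned sign to 0.035 with DESeq2 and 0.023 with only genes at 0 counts left out. Lox, the lysyl oxidase that cross-links collagen, had 96.5 ± 29.5 and 44.1 ± 7.86 CPM (SD, n = 6 each) without overlap, with a log2 fold change of -1.13 ± 0.20 (SE, edgeR adjusted p = 0.0847). Egfr, the epidermal growth factor receptor, had a log2 fold change of -0.80 ± 0.14 (SE, edgeR adjusted p = 0.0847), and 1 AAV-Notum mouse at 61.6 CPM lay above the lowest AAV-GFP mouse at 59.9 CPM. With DESeq2 the adjusted p was 9.30e-05 for Lox and 5.86e-05 for Egfr. The matrix metalloproteinase genes Mmp10 and Mmp13 and the cytokine gene Il6, common AP-1 targets in stimulated cells, had too few reads to be tested.

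The MAP kinase phosphatases, which switch off the kinases that act on AP-1, split evenly, with 5 of 10 lower and a median of -0.14 on the log2 scale (-0.052 without S_2012 and -0.30 without both S_2011 and S_2014). None passed the adjusted threshold with edgeR, 4 were lower at an unadjusted p under 0.05 and 0 were higher. The 4 were 2 without S_2014, without S_2032, without both S_2011 and S_2014 or with RNA integrity as a covariate. Without S_2022 edgeR called 2 at the adjusted threshold, Dusp16 (adjusted p = 0.0328) and Dusp8 (adjusted p = 0.0461). Dusp16, which acts on JNK and p38, had 37.5 ± 5.26 and 26.5 ± 1.94 CPM (SD, n = 6 each) without overlap, with a log2 fold change of -0.50 ± 0.09 (SE, edgeR adjusted p = 0.0912). Dusp8 had a log2 fold change of -1.40 ± 0.29 (SE, edgeR adjusted p = 0.105), and Dusp1, itself an immediate early gene, had -0.53 ± 0.21 (SE, edgeR adjusted p = 0.295). With DESeq2 the adjusted p was 6.22e-04 for Dusp16 and 7.99e-04 for Dusp8.

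Of the 28 tested genes of the MAP kinase cascade, 12 were lower and 16 higher, with a median of 0.011 on the log2 scale and 1 gene on each side at an unadjusted p under 0.05. These were Map3k5, the stress kinase ASK1, at -0.42 ± 0.12 (SE, edgeR adjusted p = 0.170) and Map2k6, a p38 activator, at 0.50 ± 0.21 (SE, edgeR adjusted p = 0.324). With 1 mouse left out the median of the cascade ran from -0.013 (without S_2042) to 0.028 (without S_2033). The higher genes numbered 0 without S_2011, S_2012, S_2014, S_2031, S_2032, S_2033 or S_2034 and with either covariate. The lower ones numbered 3 without S_2022. Transcription factors that act on the Fos and Jun promoters, such as Srf and the Mef2 genes, had 5 of 14 lower, a median of 0.075 (-0.078 with the lymphoid covariate and -0.018 with RNA integrity as a covariate) and 0 genes at an unadjusted p under 0.05 in either direction. With 1 mouse left out this median ran from 0.0029 (without S_2032) to 0.16 (without S_2022), and the higher genes numbered 2 without S_2022 and 1 without S_2013 or S_2042, while 1 was lower with the lymphoid covariate and 1 without both S_2011 and S_2014. In the list of regulators of mRNA and protein turnover, 4 of 10 were lower and the median was 0.065 (-0.076 with the lymphoid covariate). This median was 0.012 with RNA integrity as a covariate and -0.0086 without both S_2011 and S_2014. With 1 mouse left out it ran from 0.028 (without S_2011) to 0.10 (without S_2022). In this list Fbxw7, a ubiquitin ligase subunit that targets Jun, had a log2 fold change of 0.24 ± 0.09 (SE, edgeR adjusted p = 0.270). Several values of the genes named around AP-1 also moved by over 1.5 times with the lymphoid covariate, namely Map3k5 to -0.21, Map2k6 to 0.29, Fbxw7 to 0.12, Dusp8 to -0.86, Dusp1 to -0.32 and Mafg to -0.23 on the log2 scale.

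Other basic leucine zipper proteins that can pair with Fos or Jun were lower in 11 of 17 cases, with a median of -0.14 on the log2 scale and 4 genes lower at an unadjusted p under 0.05. The median was -0.075 without S_2012, -0.073 with the lymphoid covariate and -0.053 on the normalized values with limma, and the 4 genes were 2 without S_2012 or S_2033. Mafg, a small Maf protein, had -0.39 ± 0.11 (SE, edgeR adjusted p = 0.163), Jdp2, a Jun dimerization partner that represses AP-1 targets, had -0.51 ± 0.15 (SE, edgeR adjusted p = 0.197) and Atf7 had -0.18 ± 0.07 (SE, edgeR adjusted p = 0.292). None passed the adjusted threshold with edgeR, and DESeq2 called 1, Mafg (adjusted p = 0.033).

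The other immediate early genes had values on both sides of 0. Of 25 tested, 11 were lower and 14 higher with a median of 0.095, and at an unadjusted p under 0.05 there were 5 lower and 3 higher. With 1 mouse left out the lower genes ran from 5 to 8 (without S_2034) and the higher ones from 1 to 5 (without S_2022), with 1 higher in the fits without S_2011, S_2012, S_2014, S_2021, S_2031, S_2032, S_2033 or S_2034. The median was 0.30 with DESeq2, 0.40 without S_2022, 0.019 without S_2031 and 0.0077 with RNA integrity as a covariate, and it turned to -0.14 with the lymphoid covariate. Klf4 ranged from 47.3 to 75.3 CPM in AAV-GFP mice and from 31.6 to 44.7 CPM in AAV-Notum mice without overlap (log2 fold change -0.55 ± 0.13, SE, edgeR adjusted p = 0.136). The clock gene Per1 had a log2 fold change of -0.73 ± 0.19 (SE, edgeR adjusted p = 0.149) and Klf6 had -0.34 ± 0.11 (SE, edgeR adjusted p = 0.214). DESeq2 called 2 of the list, Klf4 (adjusted p = 0.0097) and Per1 (adjusted p = 0.0217). Egr1, often induced together with Fos, had 26.0 ± 5.42 and 38.1 ± 11.4 CPM (SD, n = 6 each, log2 fold change 0.55 ± 0.21, SE), but it was not among the 3 genes of smallest p and its edgeR adjusted p was 0.280. Egr1 is named after its values were seen.

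**Figure D5:**
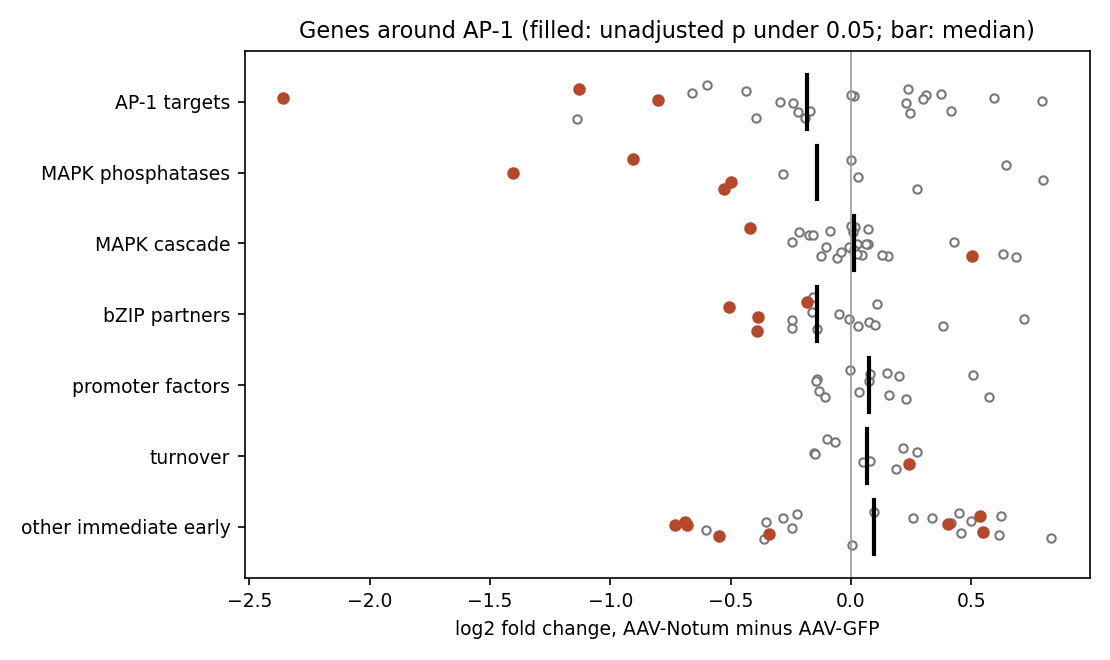
Log2 fold change (AAV-Notum minus AAV-GFP) of each tested gene of the 7 lists, 1 circle per gene, filled where the unadjusted edgeR p is under 0.05; vertical black bars are list medians, which lie between -0.18 and 0.095. Most genes of every list are drawn as open circles, and the filled ones lie mainly on the left, with 17 lower and 5 higher.

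The genes most alike to 3 members from mouse to mouse were named by Pearson's r of log2 CPM with group means removed, over 12 mice and 11384 genes with a mean of at least 5 CPM. For Fosl2 they were Slc39a3 (r 0.922), Kctd11 (0.905), Cited2 (0.897), Tbc1d17 (0.883) and Trmt10a (0.875). For Jun they included Zfp395 (0.915), Sprtn (0.874), Zfp316 (0.865) and Dgkd (0.863). For Fos they were 2010016I18Rik (0.889), Atf4 (0.883), Nfkbil1 (0.873), Rabl6 (0.829) and Sgf29 (0.821). These are the highest of many correlations and are given as a description, without a test, and the mice share library depth and tissue makeup across genes. Atf4 is a basic leucine zipper factor of the integrated stress response.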

How the data were processed

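RNA-seq of iWAT from 12 mice (6 AAV-GFP, 6 AAV-Notum) was used, grouped by the sample labels, with the mouse as replicate. Per the paper's methods and the submitters' processing notes, the authors mapped reads to mm10 with STAR 2.3.1 and tested with DESeq2. The counting program, its annotation and its strand setting are not given in the sources used here. The deposited raw table holds counts per gene without normalization. The second table deposited by the authors holds log2 values, the log2 of reads over a size factor, plus 1, and 100% of its values gave whole reads back within 1%. It lists 31157 genes, 31137 of them in both tables.

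Raw counts were fitted in R 4.3.3 with edgeR 4.0.16 (filterByExpr with a minimum count of 10 and total of 15, TMM, quasi-likelihood test, two-sided, Benjamini-Hochberg over 15585 genes, threshold 0.05). Log2 CPM carry a prior count of 2. Members, lists and tests were chosen with earlier results of these data known. The genes named were the 8 members, list genes past the adjusted threshold or among the 3 of smallest p, and the 5 most alike genes of Fos, Jun and Fosl2. Of the genes this rule names, 2 are not reported here. For Jund these could not be made, and Fos was related to 5 members, not the 7 planned, since Fosl1 and Jund failed the filter. Permutation p-values of correlations are two-sided from 1e+05 resamples. Loci are from GENCODE vM21 on GRCm38 (53990 of 54134 IDs matched) and promoters from RefSeq.

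Alternatives were RLE factors, DESeq2 1.42.0, a filter on genes with 0 counts only, RNA integrity or lymphoid markers as a covariate, the normalized values with limma 3.58.1 and each mouse left out. Chosen after the data were seen were leaving out mice S_2011 and S_2014, the recovered reads, all 15 member pairs and the lymphoid relation. Figures used matplotlib 3.10.9 in Python 3.11.15.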

Additional observations from a re-analysis of the deposited data

Results flagged for a closer look

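Atf3 in AAV-GFP mouse S_2011 was flagged because this mouse lay far from the others of its group. Its level was 10.98 CPM, against 2.49 to 4.93 CPM in the other 5 AAV-GFP mice, and the gap took 0.713 of the group's range, above the critical value for 6 samples. The same library had the lowest RNA integrity number, 5.7, and 15.1 CPM of lymphoid markers. It was the 1 flag among 12 groups examined (6 members in each treatment group), and chance flags about 1 in 20.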

How the results depend on the processing

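The signs of the log2 fold changes of Fosl2, Jun and Fos held in all fits run, whereas those of Junb, Fosb and Atf3 did not. With lymphoid markers as a covariate Jun moved to -0.47, Fosb to -0.60, Junb to -0.061 and Atf3 to -0.038. Over all alternative fits, those with a covariate included, Fosl2 ran from -0.79 to -0.59. Genes called lower among all tested (8 in the report) numbered 13 with RLE factors, 357 with DESeq2, 5 with only genes at 0 counts left out, 4 with the lymphoid covariate, 4 on the normalized values with limma and 1 without mice S_2011 and S_2014. Genes called higher (0 with edgeR, with 723 at an unadjusted p under 0.05) numbered 1 with RLE factors, 79 with DESeq2 and 1 on the recovered reads. The count of members called lower, which the choice of members already used and which is given as a description, was 2 with DESeq2 and 0 with only genes at 0 counts left out, with RNA integrity or lymphoid markers as a covariate, with limma and without mice S_2011 and S_2014. List genes called lower were 8 with DESeq2 and 0 without mice S_2011 and S_2014. List genes higher at an unadjusted p under 0.05 were 8 with only genes at 0 counts left out, 2 with either covariate and 1 without those mice. The correlation of Fos with Fosb turned sign, to -0.0038 with limma and -0.0024 on the recovered reads. The causes of these shifts were not tested.

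With each mouse left out in turn, genes called lower ran from 1 (without AAV-Notum S_2033) to 146 (without AAV-GFP S_2022) and genes called higher from 0 to 12 (without AAV-GFP S_2022). Members called lower ran from 0 to 1, list genes called lower from 0 to 5, list genes lower at an unadjusted p under 0.05 from 15 to 23 and higher from 2 to 10. The log2 fold change ran from 0.31 to 0.54 for Fos, -0.31 to 0.25 for Fosb, -0.79 to -0.69 for Fosl2, -0.97 to -0.75 for Jun, 0.32 to 0.78 for Junb and -0.59 to 0.059 for Atf3. The correlation with Fos ran from -0.336 to 0.416 for Fosb, -0.109 to 0.203 for Junb, 0.11 to 0.57 for Jun, 0.19 to 0.48 for Fosl2 and 0.34 to 0.60 for Atf3. No paired analysis was possible because the replicate numbers are mouse numbers that no mouse of the other group shares. Depth limits Fosb, Fos and Atf3, which had at most 91, 138 and 196 reads in a mouse, and Fosl1 and Jund had too few reads in the raw table, the cause of which was not tested.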

Other observations

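Among the other pairs of members, examined after the data were seen, Fosl2 and Jun had a positive relation from mouse to mouse within groups (r = 0.713, permutation p = 0.0463, rho = 0.783, permutation p = 0.0201, n = 12). Without the 2 mice farthest from the median r was 0.586, and without mice S_2011 and S_2014 it was 0.580. It was 0.816 in AAV-GFP and 0.299 in AAV-Notum mice. Jun and Junb had a negative relation (r = -0.740, permutation p = 0.0364, rho = -0.685, permutation p = 0.050, n = 12). For this pair r was -0.724 without the 2 farthest mice and -0.337 without mice S_2011 and S_2014. By group it was -0.825 in AAV-GFP and -0.326 in AAV-Notum mice. Of the 15 pairs, 0 passed after adjustment, at 0.311 for both of these by Pearson's r.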
